A study of Mus musculus with 4 samples.

Results

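Genes of hepatic gluconeogenesis and glucose use were compared between the livers of mice given an extract of Gynura segetum and those of control mice. The group holds 9 genes picked by name for their role (Pck1, G6pc, Fbp1, Ppargc1a, Gckr, Pklr, Pfkfb1, Slc2a2 and Gys2), out of 25239 genes counted, and all 9 had enough reads to be tested among 13963 genes. Gynura segetum is a herb that contains pyrrolizidine alkaloids, which liver P450 enzymes convert to reactive pyrroles. The 2 control libraries come from C57BL/6 mice aged 6 to 8 weeks that received normal saline, and the 2 extract libraries from mice of the same strain and age that received the extract into the stomach at a daily dose of 30 g/kg. Dosing lasted 3 weeks in both groups, and the extract had been concentrated to 2 g/mL. The labels do not say whether each library is a separate mouse, so each p-value reflects the spread of these libraries alone, which may be technical. The sources used here do not give feeding state or time of collection.

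The liver keeps blood glucose steady by making glucose between meals and by taking it up and storing it after meals. In gluconeogenesis, phosphoenolpyruvate carboxykinase (Pck1), fructose-1,6-bisphosphatase (Fbp1) and the catalytic subunit of glucose-6-phosphatase (G6pc) bypass the irreversible steps of glycolysis, and the coactivator PGC-1alpha (Ppargc1a) raises their transcription in fasting. After a meal, glucose enters through the transporter GLUT2 (Slc2a2), is phosphorylated under the control of a regulatory protein (Gckr), passes to pyruvate through liver pyruvate kinase (Pklr), and is stored by liver glycogen synthase (Gys2). Pfkfb1 encodes the bifunctional enzyme that sets the level of fructose 2,6-bisphosphate, the switch between both directions.

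The gene reads came to between 32215268 and 49711750 a library. Levels are given as CPM, the reads of a gene per 1000000 gene reads, on library sizes scaled by TMM, a factor that corrects for differences in composition, and 1 read was worth 0.0208 to 0.0337 CPM. Of the 10 hepatocyte markers, 4 were lower after the extract at an edgeR adjusted p under 0.05 and 6 did not pass, where 3.63% of all genes were lower. For 9 of them the extract libraries lay wholly below the controls, against 26.7% of all genes. Their summed level was 172670 and 183672 CPM in the control and 113126 and 121760 CPM in the extract libraries. Albumin (Alb) alone gave 105661 and 109118 CPM of this in the control and 69246 and 74590 CPM in the extract libraries. The part of these differences in the results was not tested. Kidney markers, from another organ that makes glucose, summed to at most 0.0834 CPM, with Kap and Aqp2 at 0 in all 4 libraries. In whole liver, fewer cells of a type and less RNA per cell cannot be told apart.

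Promoter windows are shown for 2 gluconeogenic genes, a glycolytic gene and the gene past the threshold, since these carry the comparison. Each runs from 250 bases before to 50 after an annotated transcription start (RefSeq, GRCm38.p6, 300 bases, 5′ to 3′ on the gene's strand). Capitals mark the motifs searched on both strands. These were a CRE-like core (TTACGTNA, bound by CREB family factors), a FoxO-type insulin response core (TGTTTTG), an HNF1 core (GTTAAT), a carbohydrate response pair (CACGNNNNNNNNNCGTG), an E-box (CACGTG) and a TATA box (TATAAA). No motif overlaps another in these windows. RefSeq places the start of Pck1 and of G6pc downstream of the gene starts given further on, which come from GENCODE.
Pck1, chr2:173152823-173153122, plus strand: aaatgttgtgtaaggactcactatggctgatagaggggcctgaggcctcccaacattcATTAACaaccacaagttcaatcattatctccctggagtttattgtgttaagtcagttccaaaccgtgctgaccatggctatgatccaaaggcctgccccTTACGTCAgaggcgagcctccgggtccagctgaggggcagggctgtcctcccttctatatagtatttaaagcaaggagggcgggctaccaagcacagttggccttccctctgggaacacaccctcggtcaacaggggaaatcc
G6pc, chr11:101367466-101367765, plus strand: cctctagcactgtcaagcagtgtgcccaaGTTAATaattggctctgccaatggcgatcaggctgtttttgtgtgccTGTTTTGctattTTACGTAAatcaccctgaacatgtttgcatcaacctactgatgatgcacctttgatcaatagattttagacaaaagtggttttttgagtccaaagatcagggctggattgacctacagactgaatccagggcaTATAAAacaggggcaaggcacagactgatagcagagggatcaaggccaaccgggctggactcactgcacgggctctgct
Pklr, chr3:89136373-89136672, plus strand, the downstream of its 2 windows: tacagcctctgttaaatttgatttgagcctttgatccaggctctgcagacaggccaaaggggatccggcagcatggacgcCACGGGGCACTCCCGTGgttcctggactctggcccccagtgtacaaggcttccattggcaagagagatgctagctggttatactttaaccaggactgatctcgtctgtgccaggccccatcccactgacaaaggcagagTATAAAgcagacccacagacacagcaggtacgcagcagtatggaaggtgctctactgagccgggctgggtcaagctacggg
Slc2a2, chr3:28697653-28697952, plus strand: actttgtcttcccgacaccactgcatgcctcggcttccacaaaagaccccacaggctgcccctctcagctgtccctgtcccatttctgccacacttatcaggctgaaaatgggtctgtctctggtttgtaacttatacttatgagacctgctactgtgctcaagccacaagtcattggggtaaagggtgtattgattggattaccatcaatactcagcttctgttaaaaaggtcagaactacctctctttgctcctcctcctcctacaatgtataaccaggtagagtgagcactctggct

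The CRE-like core begins 93 bases before the start in Pck1 (TTACGTCA) and 162 bases before it in G6pc (TTACGTAA). It was held by 2 of the 12 windows of the 8 genes with an entry and by 0.898% of the 32851 windows of all genes. The window of G6pc also holds the FoxO-type core, 174 bases before the start, as does that of Gckr, against 6.28% of all windows. The carbohydrate response pair occurs in Pklr alone among the 12, beginning 170 bases before the start (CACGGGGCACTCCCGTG), against 0.28% of all windows. HNF1 cores lie in 4 windows (Pck1, G6pc, Gckr and 1 of Pfkfb1; 7.10% of all), TATA boxes in 3 (G6pc, Pklr and 1 of Pfkfb1; 13.6% of all) and the E-box in 0 (7.15% of all). The windows of Slc2a2, Fbp1 and Ppargc1a hold none of the 6 motifs, nor do the remaining windows of Pklr and Pfkfb1. A match describes the letters and does not show binding. The shares of all windows are a description, and no test of enrichment was run. Gys2 is not among the windows.

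Slc2a2, the transporter that carries glucose across the hepatocyte membrane, was the only one of the 9 genes past the threshold, and it rose. Its level was 157 and 193 CPM in the control libraries and 310.4 and 291 CPM in the extract libraries. Both extract libraries lie above both controls. The controls differ 1.23-fold and the extract libraries 1.07-fold, beside medians of 1.16 and 1.09 over genes of at least 10 CPM. The means were 175 ± 25.3 and 301 ± 13.6 CPM (SD, n = 2 libraries each), a 1.72-fold increase (log2 fold change 0.78, SE 0.16, 95% interval 0.41 to 1.15; edgeR quasi-likelihood test, adjusted p = 0.0291 over all genes). Counts were 7546 and 5738 against 13393 and 13875. The gene lies on chromosome 3 (positions 28697903 to 28731359, plus strand, GRCm38, the assembly of mm10). The call was lost with either extract library left out, in fits where calls over all genes were also fewer. The log2 fold change was 0.72 with extract replicate 1 left out and 0.80 with extract replicate 2 left out. With a minimum fold of 1.5 as the null, the edgeR adjusted p was 0.391.

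Across the 9 genes, 1 was higher (Slc2a2) and 0 were lower at an edgeR adjusted p under 0.05, where 4.91% of all genes tested were higher and 3.63% lower. DESeq2 called 1 higher (Slc2a2) and 1 lower (Fbp1). It also called more genes in all, 1027 higher and 909 lower of the 17942 it gave a p-value. At an unadjusted p under 0.05 there were 4 (Slc2a2, Fbp1, Gys2 and G6pc), against 23.5% of all genes. The extract libraries lay wholly above the controls for 2 genes (Slc2a2 and Gys2) and wholly below for 3 (Pck1, G6pc and Fbp1), where 27.6% and 26.7% of all genes did. The median log2 fold change of the 9 genes was 0.15, and that of all genes was -0.00473. Over all genes 686 were higher and 507 lower, and 940 and 338 when libraries were scaled by total counts, which moved the median of all genes to 0.16. On that scale the directions of 8 genes were as before, and Ppargc1a turned to 0.083, below that median.

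**Figure D1:**
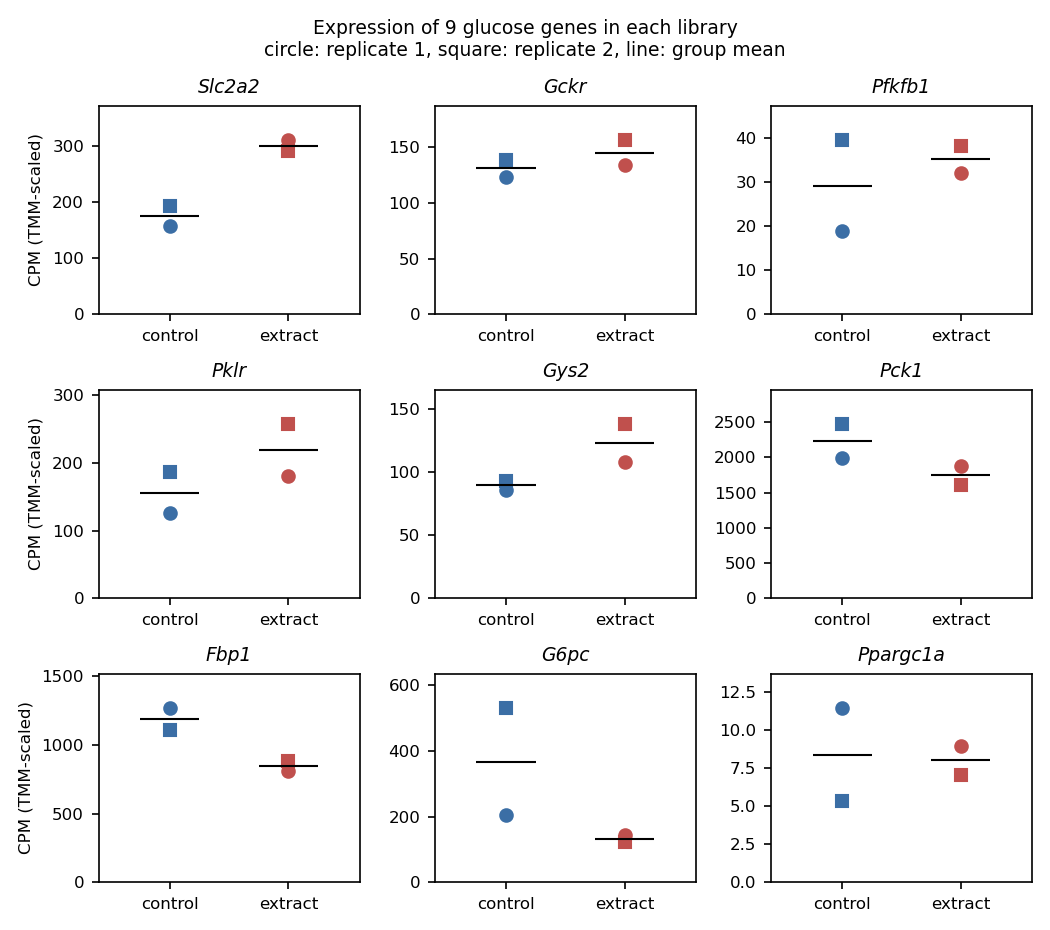
Level of each of the 9 genes in every library, in CPM on TMM-scaled library sizes, with circles for replicate 1, squares for replicate 2 and a line at the group mean. The 2 extract libraries of Slc2a2 (310.4 and 291 CPM) sit above both controls, while the control libraries of G6pc (205 and 528 CPM), Pfkfb1 and Ppargc1a are far apart.

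The 3 gluconeogenic enzymes all lay lower in the extract libraries, and 0 of them passed the threshold. Pck1, which makes phosphoenolpyruvate from oxaloacetate, was at 1991 and 2469 CPM in the control and 1876 and 1613 CPM in the extract libraries. The groups are separate but close, and extract replicate 1 lies just under control replicate 1. The means were 2230 ± 338 and 1745 ± 186 CPM (SD, n = 2 each; log2 fold change -0.35, SE 0.18, 95% interval -0.78 to 0.07, edgeR adjusted p = 0.298). Pck1 lies on chromosome 2 (173153048 to 173159273, plus strand). Without control replicate 1 its adjusted p was 0.0472 (log2 fold change -0.50), and without control replicate 2 it was 0.536 (-0.19).

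Fbp1, which removes a phosphate from fructose 1,6-bisphosphate, was at 1267 and 1108 CPM in the control and 813 and 881 CPM in the extract libraries. The gap between the groups is wider than the gap within either. The means were 1188 ± 112 and 847 ± 47.8 CPM (SD, n = 2 each; log2 fold change -0.49, SE 0.15, 95% interval -0.85 to -0.12, edgeR adjusted p = 0.112). DESeq2 gave an adjusted p of 0.028 at the same size, and the edgeR fit without control replicate 2 gave 0.00903 (-0.58). Fbp1 lies on chromosome 13 (62864753 to 62888282, minus strand).

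G6pc, which releases free glucose from glucose 6-phosphate as the last step of the pathway, had the largest fitted difference of the 9 genes and also the widest spread between controls. It was at 205 and 528 CPM in the control and 143 and 123 CPM in the extract libraries. Control replicate 2 stands far above the other 3 libraries, and control replicate 1 lies above both extract libraries. The means were 367 ± 228 and 133 ± 14.2 CPM (SD, n = 2 each; log2 fold change -1.47, SE 0.48, 95% interval -2.75 to -0.18, edgeR adjusted p = 0.166). The fitted value was -0.63 without control replicate 2 (adjusted p = 0.00091) and -1.99 without control replicate 1 (5.78e-21), the spread then coming from the extract pair alone. With extract replicate 1 or 2 left out it was -1.60 or -1.39, each with an adjusted p of 0.676. The controls differed 2.57-fold, a ratio exceeded by 1.57% of the 8091 genes of at least 10 CPM, whose median ratio was 1.16. The gene lies on chromosome 11 (101367561 to 101377903, plus strand).

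**Figure D2:**
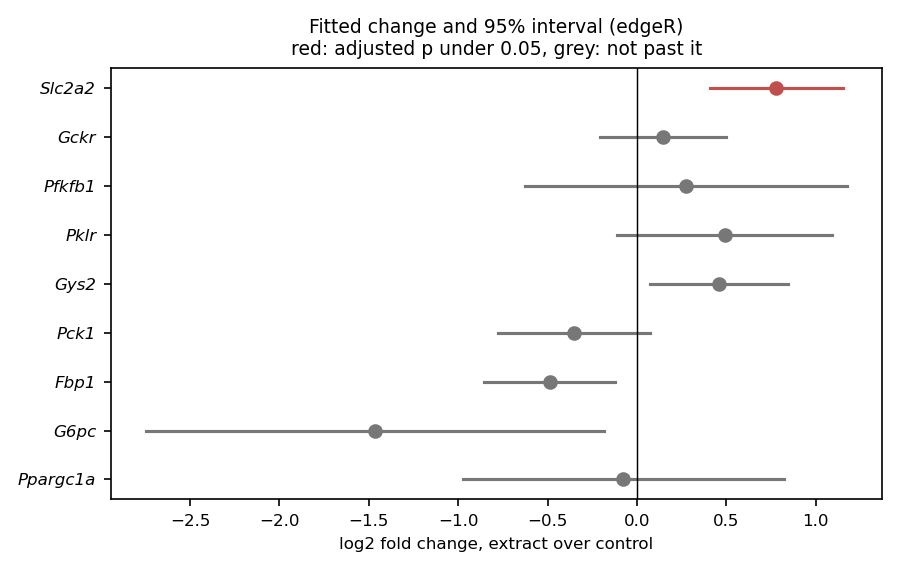
Fitted log2 fold change of each gene, extract over control, with its 95% interval from the edgeR fit. Slc2a2, in red, is the one past the adjusted threshold, at 0.78 (0.41 to 1.15), and the interval of G6pc is the widest, from -2.75 to -0.18.

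Ppargc1a, the coactivator of fasting gluconeogenesis, did not pass. It was at 11.4 and 5.35 CPM in the control and 8.95 and 7.05 CPM in the extract libraries, so both extract libraries lie between the controls. The log2 fold change was -0.08 (SE 0.37, 95% interval -0.97 to 0.82, edgeR adjusted p = 0.936), and the interval spans values on both sides of 0. The order of the controls was opposite to that of G6pc, with control replicate 1 the higher one. The fitted value was 0.58 with control replicate 1 left out and -0.51 with control replicate 2 left out. Ppargc1a lies on chromosome 5 (51454250 to 51567726, minus strand).

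Among the genes of glycolysis and its control, levels were on average higher after the extract, and 0 passed the threshold. Pklr, which makes pyruvate in the last step of glycolysis, was at 126 and 186 CPM in the control and 181 and 257 CPM in the extract libraries. Extract replicate 1 lies just under control replicate 2, so the groups overlap. The log2 fold change was 0.49 (SE 0.25, 95% interval -0.11 to 1.09, edgeR adjusted p = 0.304). It was 0.81 without control replicate 2 (adjusted p = 0.000266), 0.23 without control replicate 1 (0.396), and 0.71 or 0.19 when extract replicate 1 or 2 was left out (0.35 and 0.893). Pklr lies on chromosome 3 (89136142 to 89146784, plus strand), and 711 of its exonic bases overlap exons of Hcn3, a channel gene on the minus strand. The counts of Hcn3 were 114 and 188 in the control and 284 and 612 in the extract libraries, and for both genes control replicate 1 had the lowest and extract replicate 2 the highest CPM. Without a stated strand setting, reads of this overlap cannot be told apart. The gene count also joins the liver and erythroid forms of the enzyme, which start at different first exons.

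Gckr, a nuclear inhibitor of hepatic glucose phosphorylation when glucose is low, was at 124 and 138 CPM in the control and 134 and 156 CPM in the extract libraries. The groups overlap and the spread is small (log2 fold change 0.15, SE 0.15, 95% interval -0.21 to 0.50, edgeR adjusted p = 0.627). With a library left out the fitted value ran from 0.0072 to 0.24, and its call did not change. Gckr lies on chromosome 5 (31297443 to 31327314, plus strand).

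Pfkfb1, the liver isoform of the bifunctional enzyme, was at 18.9 and 39.4 CPM in the control and 32.1 and 38.2 CPM in the extract libraries. The controls differ 2.09-fold, and the extract libraries lie between them. The log2 fold change was 0.27 (SE 0.36, 95% interval -0.63 to 1.18, edgeR adjusted p = 0.716). It was 0.90 without control replicate 2 (adjusted p = 4.31e-06) and -0.17 without control replicate 1 (0.507), so its direction rests on which control is used. Pfkfb1 lies on chromosome X (150588229 to 150643878, plus strand), and 123 exonic bases overlap the minus-strand gene Apex2. The counts of Apex2 were 234 and 191 in the control and 257 and 278 in the extract libraries.

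Gys2, which adds glucose to glycogen in liver, was at 86.0 and 93.5 CPM in the control and 108 and 138 CPM in the extract libraries. Both extract libraries lie above both controls, which differ little. The means were 89.7 ± 5.30 and 123 ± 21.0 CPM (SD, n = 2 each; log2 fold change 0.46, SE 0.16, 95% interval 0.07 to 0.85, edgeR adjusted p = 0.148). It passed without control replicate 2 (0.52, adjusted p = 0.00954) and not without extract replicate 2 (0.25, 0.814). Gys2 lies on chromosome 6 (142422613 to 142473109, minus strand).

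**Figure D3:**
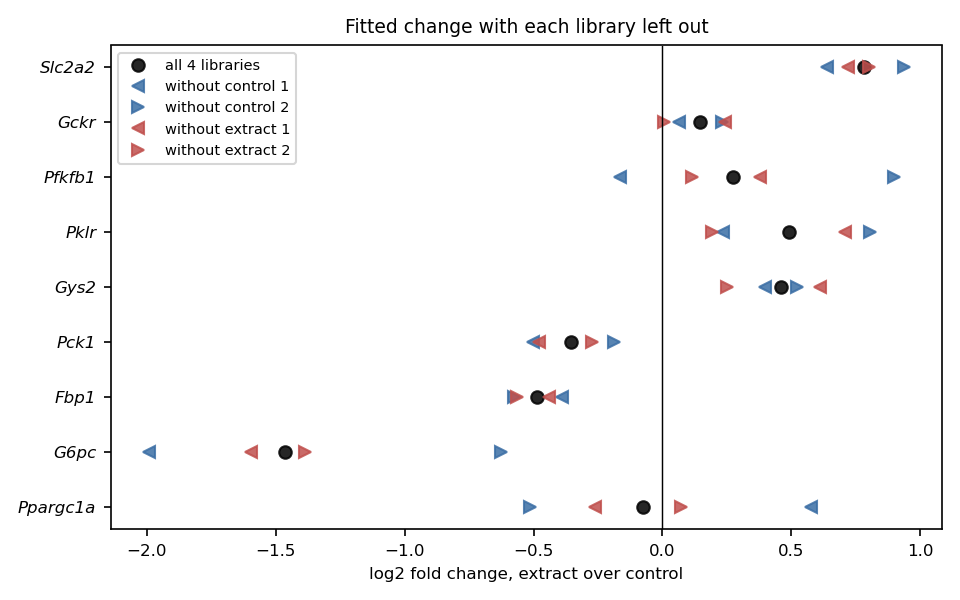
Fitted log2 fold change of each gene with all 4 libraries (black) and with each library left out (blue for a control, red for an extract library). G6pc runs from -1.99 to -0.63 and Pfkfb1 from -0.17 to 0.90, while Slc2a2 stays between 0.64 and 0.94.

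Levels of different genes were compared per length, as CPM per kilobase of summed exons. In control liver Fbp1 (698 ± 65.8) and Pck1 (650.3 ± 98.7) were the most abundant, followed by G6pc (152 ± 94.6), Pklr (48.2 ± 13.2), Gys2 (33.8 ± 1.99), Slc2a2 (30.4 ± 4.40), Gckr (30.2 ± 2.40), Pfkfb1 (7.26 ± 3.61) and Ppargc1a (1.27 ± 0.651; SD, n = 2 each). The libraries of neighbours in this order overlap for Fbp1 and Pck1, Gys2 and Slc2a2, and Slc2a2 and Gckr, and not for the other pairs. After the extract the order was Pck1 (509 ± 54.2), Fbp1 (498 ± 28.1), Pklr (67.8 ± 16.6), G6pc (55.0 ± 5.89), Slc2a2 (52.3 ± 2.37), Gys2 (46.4 ± 7.89), Gckr (33.4 ± 3.66), Pfkfb1 (8.75 ± 1.08) and Ppargc1a (1.21 ± 0.203). Here each neighbour overlaps the next from Pck1 to Fbp1 and all along from Pklr to Gys2. Slc2a2 thus stood in place 6 of 9 in control and place 5 in extract liver, and G6pc in place 3 and place 4. When lengths are taken from the longest transcript, Fbp1 and Pck1, and Slc2a2 and Gckr, change places in control liver.

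Ratios of reads within a library do not depend on library scaling. The pairs given were picked after their values were seen. For each read of G6pc there were 0.766 and 0.365 reads of Slc2a2 in the control and 2.17 and 2.37 in the extract libraries. For each read of Pck1 there were 0.0632 and 0.0755 reads of Pklr in the control and 0.0967 and 0.159 in the extract libraries. For each read of Fbp1 there were 0.124 and 0.174 reads of Slc2a2 in the control and 0.382 and 0.33 in the extract libraries. In all 3 pairs both extract libraries lie above both controls. Slc2a2 by itself lay above its controls, and G6pc and Fbp1 lay below theirs. The ratios of Slc2a2 to these genes therefore had to separate and add nothing to the single genes. Of 13 ratios computed, the groups did not overlap in 12. Several of them join genes that separated by themselves, or divide by albumin, which also did. Among single genes, 27.6% of all lay wholly above the controls and 26.7% wholly below. The share over other pairs of genes was not computed, so the count shows nothing particular to the 9 genes. Set against the hepatocyte marker Alb (albumin), G6pc had 0.00194 and 0.00484 reads in the control and 0.00206 and 0.00165 in the extract libraries, which overlap. Slc2a2 had 0.00149 and 0.00177 reads per read of Alb in the control and 0.00448 and 0.0039 in the extract libraries, which do not. Alb itself lay lower in both extract libraries (log2 fold change -0.58, edgeR adjusted p = 0.0982). The ratio of Slc2a2 to Alb therefore also had to separate. With 2 libraries against 2, an exact permutation test cannot pass the threshold, and none was run.

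The genes whose pattern over the 4 libraries was most like that of a member were found among 7972 candidates of at least 10 CPM, by the root mean square difference of centred log2(CPM + 1) values, for the 3 members with the largest fitted change. For G6pc they were Irs2, an insulin receptor substrate (0.101), Nlrp12 (0.149) and Nudt7 (0.172). Irs2 was at 49.2 and 111 CPM in the control and 35.7 and 29.4 CPM in the extract libraries, with the same high control library as G6pc. For Slc2a2 they were Nubp1 (0.0338), Mpzl2 (0.0366) and Pitpnm2 (0.037), and for Pklr Xkr9 (0.0634), Mief2 (0.0682) and Gpn2 (0.0838). Of these 9 genes the 3 like Slc2a2 were higher by edgeR and the other 6 did not pass. They were chosen for their likeness to a member in these same libraries. Their calls therefore tend to follow the call of that member and add no support to it. With 4 libraries such likeness is a description only.

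G6pc, Pfkfb1 and Ppargc1a differed at least 2-fold between the controls, and the other glucose genes were read for the same. Of 138 further genes on the lists given below with at least 10 CPM, 10 differed at least 2-fold between the controls and 1 between the extract libraries (Pdpr). These are 7.25% and 0.725%, beside 3.30% and 0.346% of the 8091 genes at that level. The genes named were picked out after their values were seen. Among those higher in control replicate 2 were Pdk4, the kinase that shuts pyruvate dehydrogenase in fasting (15.5 and 55.7 CPM in the controls, 19.9 and 19.3 CPM in the extract libraries), Igfbp1, an insulin-repressed secreted protein (147 and 362 against 121 and 73.6 CPM), and also Irs2, Nr1d1 and Lpin1. Higher in control replicate 1 were Aldh1b1, Pdpr, Per1 and Foxo3. For Pdk4 and Igfbp1, as for G6pc, control replicate 2 is the highest of the 4 libraries. Pericentral hepatocyte markers also differed between the controls, with a summed level of 5474 and 10016 CPM against 4587 and 5158 CPM in the extract libraries, and periportal markers summed to 12369 and 9178 against 10741 and 8597 CPM. The part of this difference in the results was not tested.

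**Figure D4:**
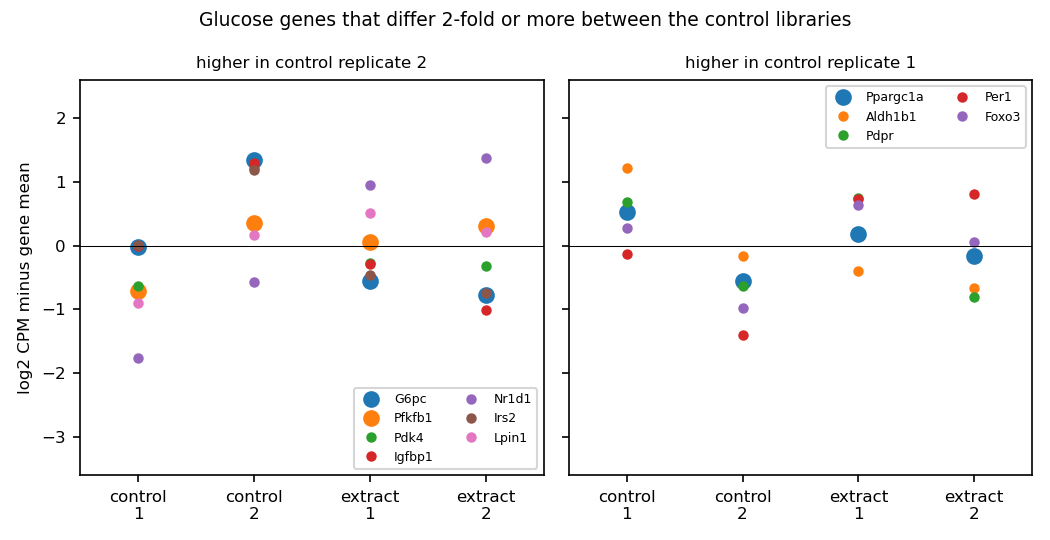
Log2 CPM minus the gene's mean over the 4 libraries, for named glucose genes that differ at least 2-fold between the controls, with large points for G6pc, Pfkfb1 and Ppargc1a. On the left, G6pc, Igfbp1, Irs2 and Pdk4 are highest in control replicate 2, and on the right Ppargc1a is lowest there.

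Other genes of glucose metabolism were read from 9 lists with 181 genes in all, of which 174 were tested. Of these 17 were higher and 8 lower after the extract by edgeR, or 9.77% and 4.60%, against 4.91% and 3.63% of all genes, and their median log2 fold change was 0.10. The lists were chosen with earlier results of these data known. Their shares are therefore a description and not a test against all genes. The counts moved with each library left out. They were 38 higher and 19 lower without control replicate 1 and 40 and 26 without control replicate 2, where calls over all genes were also more numerous. With extract replicate 1 left out they were 8 and 4, and with extract replicate 2 left out 7 and 4. Of the 25 calls, 10 were made in all 4 of these fits. With libraries scaled by total counts 27 were higher and 4 lower.

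In the pentose phosphate pathway, which draws glucose 6-phosphate to make NADPH, 2 of 9 genes rose and 1 fell, and the median was 0.44. Pgd, the dehydrogenase of 6-phosphogluconate, went from 38.5 and 40.8 CPM to 125 and 126 CPM (log2 fold change 1.67 with an SE of 0.13, edgeR adjusted p = 0.00115), with the pairs nearly equal within each group. Transketolase (Tkt) rose by a log2 fold change of 0.64 and H6pd, which starts a separate branch inside the endoplasmic reticulum, had -0.71; both calls were lost with either extract library left out. G6pdx, the cytosolic entry enzyme, had 0.98 with an adjusted p of 0.058. The number called higher on this list ran from 1 to 6 with a library left out, and with total-count scaling it was 5, with 0 lower.

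Among fructose and galactose enzymes, 2 of 9 rose, and the median was 0.18. By edgeR 0 were lower, also at an unadjusted p under 0.05, and by DESeq2 1 was. Without extract replicate 1 or 2 the number higher was 1, and without control replicate 1 or 2 the number lower was 1. Tkfc, the triokinase that phosphorylates glyceraldehyde from fructose, was at 219.8 and 319 CPM in the control and 682 and 893 CPM in the extract libraries, which lie far above (edgeR log2 fold change 1.55, SE 0.23, adjusted p = 0.012). Galactokinase (Galk1) had 0.74 (adjusted p = 0.0275), a call lost with either extract library left out. Aldh1b1 (-1.22, adjusted p = 0.245) and sorbitol dehydrogenase (Sord, 0.33, 0.258) did not pass.

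On the glycolysis list 2 of 25 rose and 1 fell, and the median was 0.14. With a library left out the numbers ran from 1 to 6 and from 1 to 4. Pfkfb3, an isoform of the Pfkfb1 enzyme with high kinase activity, went from 6.29 and 7.20 CPM to 24.1 and 19.8 CPM, with no overlap (edgeR log2 fold change 1.70, SE 0.19, adjusted p = 0.00422). The isomerase Gpi1 rose (0.85, adjusted p = 0.0308), a call lost with either extract library left out. Hexokinase 3 (Hk3), which is found mainly in myeloid cells, fell from 8.96 and 6.16 CPM to 1.53 and 1.34 CPM (-2.40, adjusted p = 0.00798). Beside it, 7 of 8 Kupffer cell markers were lower by edgeR, where 3.63% of all genes were. Their summed level was 638 and 495 CPM in the control and 57.6 and 58.0 CPM in the extract libraries. The part of these markers' cells in the fall of Hk3 was not tested. Hexokinase 2 (Hk2) did not pass (-1.44, adjusted p = 0.117).

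On the glycogen list 1 of 25 rose and 1 fell, and the median was 0.22. The number higher ran from 1 to 7 and the number lower from 0 to 5 with a library left out, and total-count scaling gave 4 and 0. The branching enzyme Gbe1 was at 61.2 and 75.9 CPM in the control and 179 and 167 CPM in the extract libraries, with a wide gap between the groups (edgeR log2 fold change 1.34, SE 0.16, adjusted p = 0.00514). Ppp1r3c, a subunit that brings protein phosphatase 1 to glycogen, fell (-0.60, adjusted p = 0.0426), a call lost with either extract library left out. Stbd1 (0.81, adjusted p = 0.0662) and the phosphorylase kinase subunit Phkb (0.50, 0.079) did not pass. For each read of Pygl, the liver glycogen phosphorylase, there were 0.191 and 0.184 reads of Gys2 in the control and 0.211 and 0.229 in the extract libraries, a small separation without overlap.

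Of 17 further gluconeogenesis and shuttle genes, 1 rose and 1 fell, and the median was 0.14, with 0 to 3 called in each direction when a library was left out. Alanine aminotransferase (Gpt) went from 291 and 256 CPM to 468 and 445 CPM (edgeR log2 fold change 0.74, SE 0.14, adjusted p = 0.0274). Serine dehydratase (Sds), a periportal enzyme that feeds pyruvate from serine, went from 331 and 224 CPM to 147 and 108 CPM (-1.12, SE 0.24, adjusted p = 0.0395). The call of Gpt was lost with either extract library left out, and that of Sds without extract replicate 2. Slc37a4, which carries glucose 6-phosphate to the lumenal enzyme encoded by G6pc, had 0.56 (adjusted p = 0.116), the opposite sign to G6pc, and the citrate carrier Slc25a1 had 0.42 (0.15).

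In the sugar transport list 1 of the 10 tested rose and 1 fell, and the median was 0.35. With a library left out 0 to 4 were higher and 1 was lower in each fit. Slc45a3, a membrane protein related to sucrose transporters, fell from 57.4 and 61.1 CPM to 23.8 and 25.2 CPM (edgeR log2 fold change -1.27, SE 0.13, adjusted p = 0.00336). Slc2a4, the insulin-responsive transporter of muscle and fat, rose from 0.438 and 0.370 CPM to 1.55 and 4.15 CPM (2.80, adjusted p = 0.0395), on few reads, and its call was lost without extract replicate 2 and with limma-voom. Slc2a5 (1.93, adjusted p = 0.0802) and Slc2a9 (0.47, 0.0927) did not pass. Of the 12 pyruvate dehydrogenase genes, 0 were past the threshold by edgeR and by DESeq2, with a median of 0.08. At an unadjusted p under 0.05 by edgeR there were 3, a share close to the 23.5% of all genes. These were Pdhb (0.55), Pdp2 (-0.51) and Pdk1 (0.37). Leaving out a control library gave up to 2 calls in either direction. Dld, the next by p-value, had -0.25 (edgeR adjusted p = 0.304).

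Among 37 transcription factors of glucose genes, 6 rose and 3 fell, and the median was -0.06. With a library left out the numbers ran from 3 to 9 and from 1 to 8. Clock factors led them. Per2 went from 6.86 and 5.01 CPM to 61.9 and 64.4 CPM (log2 fold change 3.40, edgeR adjusted p = 0.00034), Nr1d2 had 2.78 (0.000476) and Arntl -2.42 (0.000476), and all 3 stayed past the threshold with each library left out. Srebf1, a factor that raises lipid synthesis genes in response to insulin, rose from 178 and 151 CPM to 419 and 367 CPM (1.26, adjusted p = 0.00672). The part of collection time in these values, and in those of the 9 genes, was not tested. Of 30 genes of insulin and glucagon signalling, 2 rose, and the median was -0.02. By edgeR 0 were lower, with 1 at an unadjusted p under 0.05 and 1 by DESeq2. With a library left out the numbers ran from 0 to 6 higher and from 0 to 5 lower. The kinase Sik1 (1.23, adjusted p = 0.0193), which restrains the CREB coactivators of gluconeogenesis, was one of those that rose, a call lost with either extract library left out. Irs1 (0.73, 0.077) and Prkaa2 (0.47, 0.0882) did not pass.

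**Figure D5:**
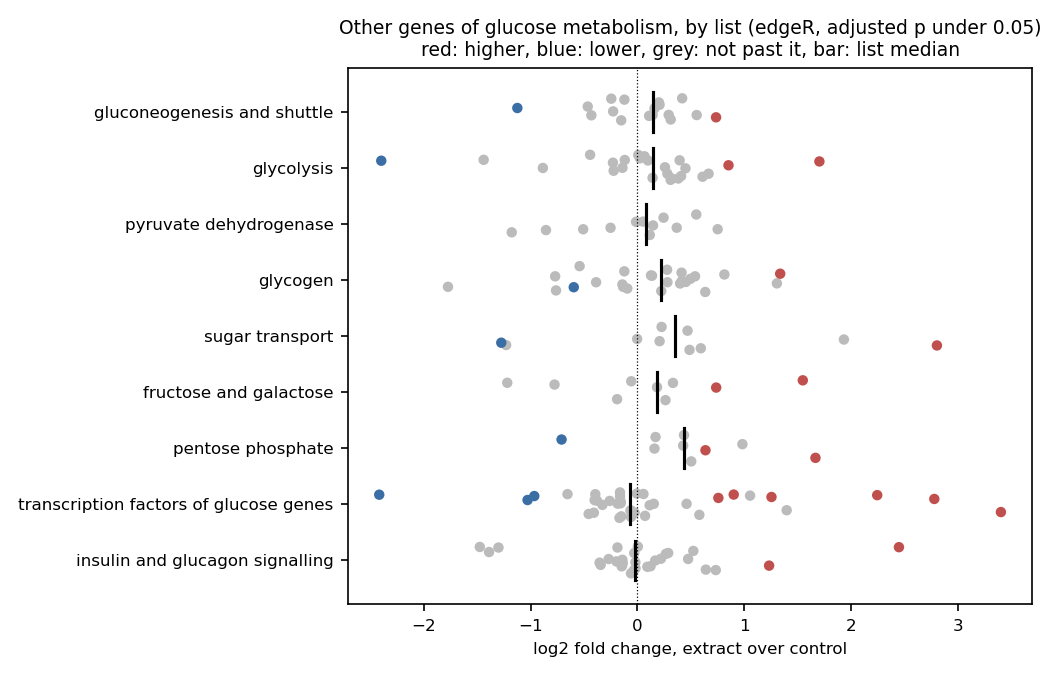
Log2 fold change of each tested gene on the 9 lists, extract over control, with red for higher, blue for lower and grey for not past an edgeR adjusted p of 0.05, and a bar at the list median. Medians run from -0.06 for transcription factors to 0.44 for the pentose phosphate pathway, and called genes of both directions lie on 6 of the 9 lists.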

How the data were processed

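Liver RNA of 2 control and 2 extract libraries was analysed. The authors deposited 1 raw count per gene symbol and library, and CASAVA 1.8, HISAT2 2.1.0, HTSeq and the mm10 build are named per the submitters' processing notes, with no roles. The sources used here do not give the annotation, strand setting or HTSeq version. The 5 closing rows that name no gene, of which reads with more than 1 place took 5.18% to 9.03% of all records, stayed out. The members and gene lists were chosen with earlier results of these data known.

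Counts were fitted with edgeR 4.0.16 in R 4.3.3 (filterByExpr, TMM, robust dispersion and quasi-likelihood fit, 2 groups, no covariate), with Benjamini-Hochberg adjustment over 13963 genes and a threshold of 0.05. Standard errors are the log2 fold change over the square root of F, and 95% intervals use its degrees of freedom. Replicates differed by more than sampling noise (chi-square over its degrees of freedom 118 and 29.1). Named genes were the 9 members, up to 4 genes of at least 1 CPM with the smallest p-values on each list, and the 3 nearest patterns of 3 members; a few that the rule names are not reported here. Positions, exon lengths and overlaps come from GENCODE vM21 on GRCm38. Stretches of 75 bases were shared with other genes only by Pklr (19.9%, Hcn3) and Pfkfb1 (0.048%, Apex2) among the 9. Alternatives were other scalings, filters, DESeq2 1.42.0, limma-voom (limma 3.58.1), a minimum fold of 1.5, a replicate block and leaving out each library. The fit was also run on simulated counts with known changes, drawn from its own fitted means and spread. Such counts cannot show that the model suits these libraries, and no result rests on that run.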

Additional observations from a re-analysis of the deposited data

How the results depend on the processing

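Leaving out a library changed most counts. Over all genes the calls ran from 233 to 1826 higher and from 134 to 1782 lower, and among the 9 genes from 0 to 4 higher and from 0 to 2 lower, with a lone library taken to vary as the other group's libraries do. With a minimum fold of 1.5, 314 genes were higher and 186 lower, with 0 members higher. DESeq2 called 909 genes lower and 1 member lower. With the replicate number as a block there were 902 and 682 genes and 2 members higher (Slc2a2 and Pklr, adjusted p 0.0208 and 0.0483). The labels do not say that numbers pair the libraries, and same-numbered libraries deviated together at r = 0.24 over 12180 genes, which are not independent. No other call among the 9 genes changed under the block.

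Directions changed for 4 of the 65 single genes followed. Ppargc1a was 0.083 with total counts and 0.012 with the replicate block, and ran from -0.51 (control replicate 2 left out) to 0.58 (control replicate 1 left out), with 0.072 when extract replicate 2 was left out. Pfkfb1 ran from -0.17 to 0.90 and Pdk4 from -1.51 to 0.34, the ends being the fits without control replicates 1 and 2. The Pdpr log2 fold change was 0.15 with total counts and ran from -0.98 (extract replicate 1 left out) to 0.80 (control replicate 1 left out), with 0.55 when extract replicate 2 was left out. The cause was not tested. Of the other values of single genes, 844 kept direction and side of the threshold, 53 lost the call and 69 gained one. Lengths from the longest transcript moved 7 of 18 group levels by over 1 SD.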

Other observations

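Gluconeogenic enzymes are most abundant in periportal hepatocytes, so markers of both zones were read as well. Of 8 periportal markers 3 were lower after the extract by edgeR and 0 were higher, where 3.63% and 4.91% of all genes were. At an unadjusted p under 0.05 also 0 were higher, and the median log2 fold change was -0.57. Histidine ammonia-lyase (Hal) went from 754 and 449 CPM to 157 and 154 CPM (-1.95, adjusted p = 0.00868) and stayed past the threshold with each library left out. The polymeric immunoglobulin receptor (Pigr) went from 1881 and 1691 to 994 and 909 CPM (-0.91, 0.0166), a call lost with either extract library left out, and Sds is given above. Gls2 (-1.24, edgeR adjusted p = 0.0611), Ass1 (-0.24), Cps1 (0.15), Arg1 (0.10) and Cyp2f2 (0.09) did not pass. Of 8 pericentral markers 0 passed by edgeR, and the median was -0.42. At an unadjusted p under 0.05 there were 3, in both directions, with Cyp1a2 higher (0.40) and Cyp2e1 (-0.95) and Rhbg (-0.91) lower, beside 23.5% of all genes. Glutamine synthetase (Glul) was at 382 and 1529 CPM in the controls and 490.4 and 533 CPM in the extract libraries, so the controls differ by more than the groups. The genes named here were picked after their values were seen. The part of zonal differences in the results was not tested.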
